A study of Gallus gallus with 20 samples.

Results

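In scutate scales of chicken embryos that carried the RCAS-Grem1 virus, 30 genes without a keratin name stood above all 8 other groups of the series, and for 1 of them the ratio to the next group was 519. The members were found among the 16110 rows with Ensembl identifiers in a table of 16290 rows, the other 180 being keratins. A gene was kept when its mean in the Grem1 group was at least 2 RPKM, reads scaled to gene length and to the size of the library, and when that mean plus 1 was at least 1.5 times the mean plus 1 of every other group. The members were thus chosen by the group means themselves, so every difference between Grem1 scales and another group is given below as a description without a test. The files pair none of these identifiers with a gene name, and the reference table of names holds 0 of them, so no role is given to any member and the row that holds Grem1 itself was not looked up. Members are therefore called by identifier or by rank, from 1 to 30 in falling order of the ratio of means plus 1 to the next highest group.

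The series holds 20 libraries from White Leghorn embryos collected on embryonic day 16, when scutate scales, the broad overlapping plates of the bird shank and toes, are forming their hard surface. Control scales carried RCAS-GFP (n = 2), where RCAS is an avian retroviral vector and GFP a fluorescent protein, and the Grem1 group carried RCAS-Grem1 (n = 2). The other scales carried RCAS with beta-catenin (n = 2), Spry2 (n = 2), Sox2 (n = 2), Sox18 (n = 3) or a construct named Zic1-deltaC (n = 3), or came from embryos given retinoic acid (RA) in the amniotic cavity on embryonic day 9 (n = 2), with no vehicle group. Normal feather (n = 2) was dissected as dorsal skin, so appendage and body site differed together. Virus was given on embryonic day 3 into the amniotic cavity and hind limb, or as plasmid with electroporation, and the labels do not say which route each library had. No virus is named for the RA and feather groups, and infected cells were not separated from uninfected ones. Whether the replicates of a group are different embryos is not stated in the labels, and the p-values then measure only the spread between these libraries, which may be technical.

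Grem1 encodes gremlin, a secreted protein that binds bone morphogenetic proteins and keeps them from their receptors. Bone morphogenetic proteins signal through receptor kinases to SMAD transcription factors, and in embryonic skin of birds they limit where feather buds form and act in the outgrowth and branching of feathers. Beta-catenin carries the Wnt signal to the nucleus, Spry2 holds back signalling from receptor tyrosine kinases, and Sox2, Sox18 and Zic1 are transcription factors. In bulk tissue, fewer cells of a type and less RNA per cell cannot be told apart.

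Read totals were not analysed here and the depth behind each value is unknown. Summed RPKM lay between 373552 and 750919 per library. Keratins took 18.6% and 20.6% of it in the Grem1 libraries, 22.3% and 25.3% in the GFP libraries, and 74.4% and 68.8% in feather. RPKM is relative, so a larger keratin share lowers the other genes. Each call below was therefore also made on values divided by median-ratio size factors, called scaling below, whose log2 ratio to GFP was -1.27 for feather and -0.06 for Grem1, so that scaling raised feather values most. Claw keratins summed to 22035 ± 5994 RPKM in Grem1 scales (SD, n = 2), against 38401 ± 4653 RPKM in GFP scales and 44.4 ± 7.78 RPKM in feather. Scale keratins summed to 20174 ± 1765, 26215 ± 1179 and 264 ± 75.0 RPKM in the same order. A set of 88 genes with GFP replicate 1 far above every other library held 0 members. The rule for members fixes this, so nothing is read from it. A further 25 genes were at 1 RPKM or more in every Spry2, Grem1 and beta-catenin library and at 0 in the rest, and 0 of them are members. With 30 members among 16290 rows, nothing is read from this count either.

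The first-ranked gene, ENSGALG00000009724, stood at 2941 and 2866 RPKM in the Grem1 libraries. Its values were 1.6 and 1.3 RPKM in GFP scales, 5.4 and 3.8 with Spry2, 2.7 and 2.9 with beta-catenin, 2.0, 3.2 and 2.3 with Zic1-deltaC, and 3.3 and 5.8 with Sox2. They were 1.3, 2.3 and 1.5 RPKM with Sox18, 0.90 and 1.2 with RA, and 0.30 in both feather libraries. No library outside the Grem1 group came above 5.8 RPKM, and both Grem1 libraries lay near each other. Whether this row holds Grem1, the gene delivered by the virus in these scales alone, was not tested. The ratio of means plus 1 to the next group, Spry2, was 519. In the Grem1 libraries it was the 14th and the 18th most abundant of all 16290 rows and held 0.729% and 0.715% of the summed RPKM. In the GFP libraries it ranked 10171st and 10328th.

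**Figure D1:**
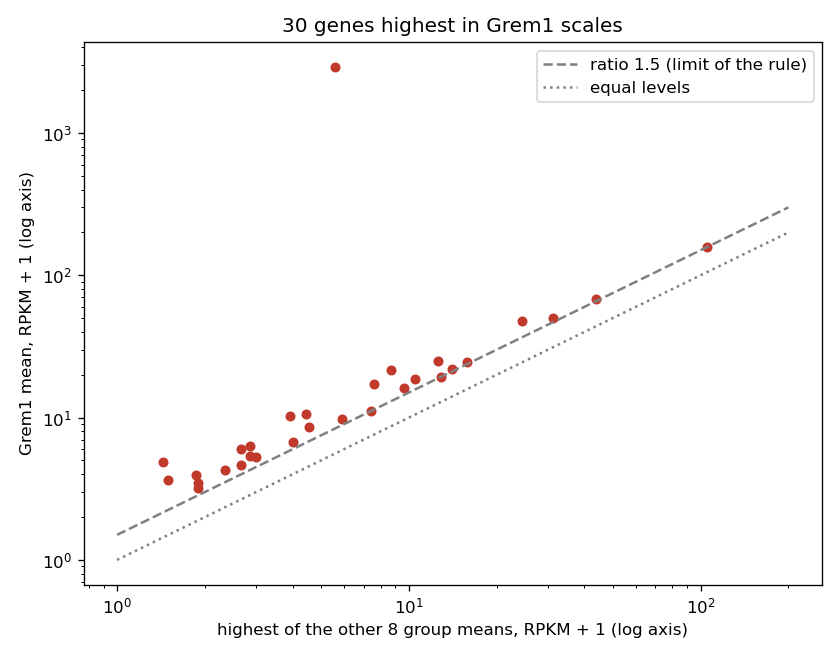
Mean level of each of the 30 members in Grem1 scales (vertical axis, RPKM + 1, log axis) against the highest mean among the other 8 groups (horizontal axis, RPKM + 1, log axis). The dashed line marks the ratio of 1.5 that the rule required; 1 point stands at a ratio of 519 and the other 29 lie between 1.5 and 3.42.

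The remaining 29 members had far smaller margins. The ratio of means plus 1 was between 2 and 4 for 9 genes and under 2 for 20. Levels in Grem1 scales were mostly low: 16 members had a mean under 10 RPKM, 12 lay between 10.1 and 66.7 RPKM, and 2 stood at 158 and 2903 RPKM. The median mean of the members was 9.38 RPKM in Grem1 scales, against 1.38 RPKM in GFP scales and 0.75 RPKM in feather. Over all Ensembl rows the median mean was 3.45, 3.85 and 1.3 RPKM in those groups. Those rows had no lower limit, while members had to reach 2 RPKM in Grem1 scales, so nothing is read from this contrast. Summed without the first-ranked gene, the members reached 592 and 543 RPKM in the Grem1 libraries. The sums were 199 and 195 RPKM in GFP scales, 278 and 248 with Spry2, 228 and 234 with beta-catenin, and 263, 258 and 258 with Zic1-deltaC. They were 200.4 and 199.8 RPKM with Sox2, 197, 216 and 240.2 with Sox18, 183 and 187 with RA, and 85.6 and 106 in feather. Both Grem1 sums lay above the highest of the others, as the choice of genes fixes, and both feather sums were the lowest. After scaling, the feather sums of 202 and 208 lay above those of GFP, at 177 and 176, and the Sox2 sums of 144 and 139 were the lowest.

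**Figure D2:**
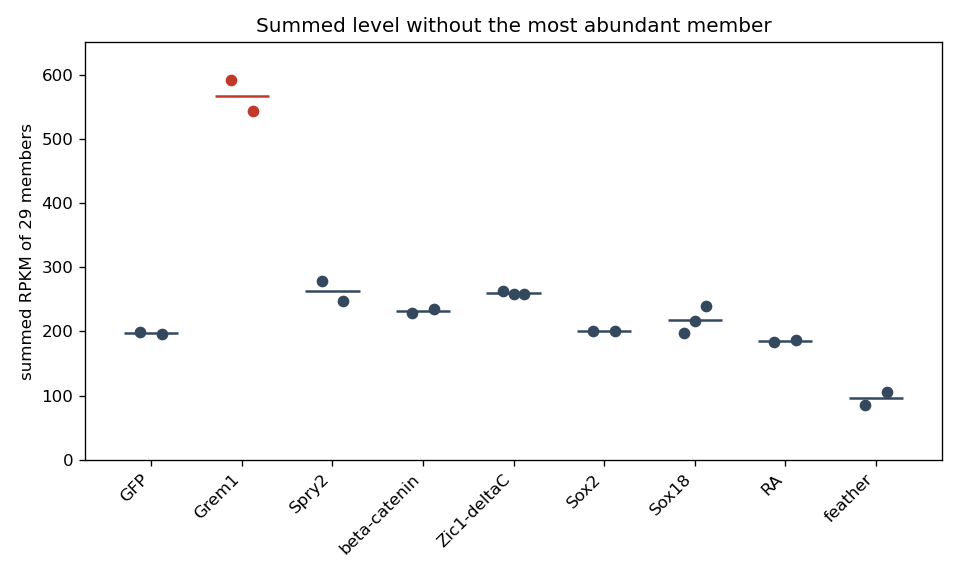
Summed RPKM of the 29 members without the first-ranked gene (vertical axis) in each library (points) of the 9 groups (horizontal axis), with lines at the group means. The Grem1 libraries stand at 592 and 543 RPKM and every other library at 278.2 RPKM or less.

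Both Grem1 libraries lay above all 18 other libraries for 30 of 30 members. This happened for 2.29% of the 11863 genes tested, but the rule used these values, so nothing is read from the count. The lower Grem1 library was at least 1.5 times the highest other library for 22 members, and 1.34 times in the narrowest case. The Grem1 replicates differed by a median of 1.11-fold, by less than 1.5-fold in 28 members and by 1.86-fold at most. Replicate 1 was the higher one in 19 members and replicate 2 in 11. Chosen with either Grem1 library alone, the set came to 34 genes without replicate 1, of which 25 are members, and to 42 genes without replicate 2, of which 27 are members. Across the 20 ways of leaving out 1 library, 21 of the 30 were chosen each time.

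Near the limits the set has no gap. The last 3 members inside had ratios of 1.51, 1.5 and 1.5, the last of them exactly on the limit with 10.1 RPKM in Grem1 scales against 6.4 RPKM with Spry2. The first 3 genes outside had ratios of 1.49, 1.49 and 1.48. Another 10 Ensembl rows met the ratio but not the level, the nearest at 1.7 RPKM, and the lowest member stood at 2.2 RPKM. After median-ratio scaling the rule chose 33 genes, of which 23 are members. Applied in turn to each other group, the rule chose 413 genes in Sox2, 299 in feather, 57 in GFP, 40 in Spry2, 28 in Sox18, 26 in Zic1-deltaC, 24 in beta-catenin and 10 in RA. After scaling, the rule chose 61 genes in Sox2 and 1471 in feather. Among the keratins, 1 met the same limits. Chr25_Ktn4, a keratinocyte beta-keratin by its name, stood at 584 and 438 RPKM in Grem1 scales, 348 and 181 RPKM with Spry2, and 110.0 and 72.5 RPKM in GFP scales.

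The gene with the next largest margin, ENSGALG00000016142 (rank 2), was measured at 3.8 and 4.0 RPKM in the Grem1 libraries and at 0.60 RPKM or less elsewhere. It was listed at 0 in both GFP, both RA and both feather libraries, at 0.40, 0.30 and 0.60 RPKM with Sox18, and at 0.30 RPKM in both beta-catenin libraries. Rank 5 was listed at 0 in all libraries except those of Grem1, at 3.4 and 1.9 RPKM, and of Spry2, at 0.50 RPKM in both. With values given to 1 decimal, such low levels carry few digits. Of the 30 members, 3 passed the filter of at least 1 RPKM in at least 2 libraries through the Grem1 libraries alone, and 26 would have passed without them.

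**Figure D3:**
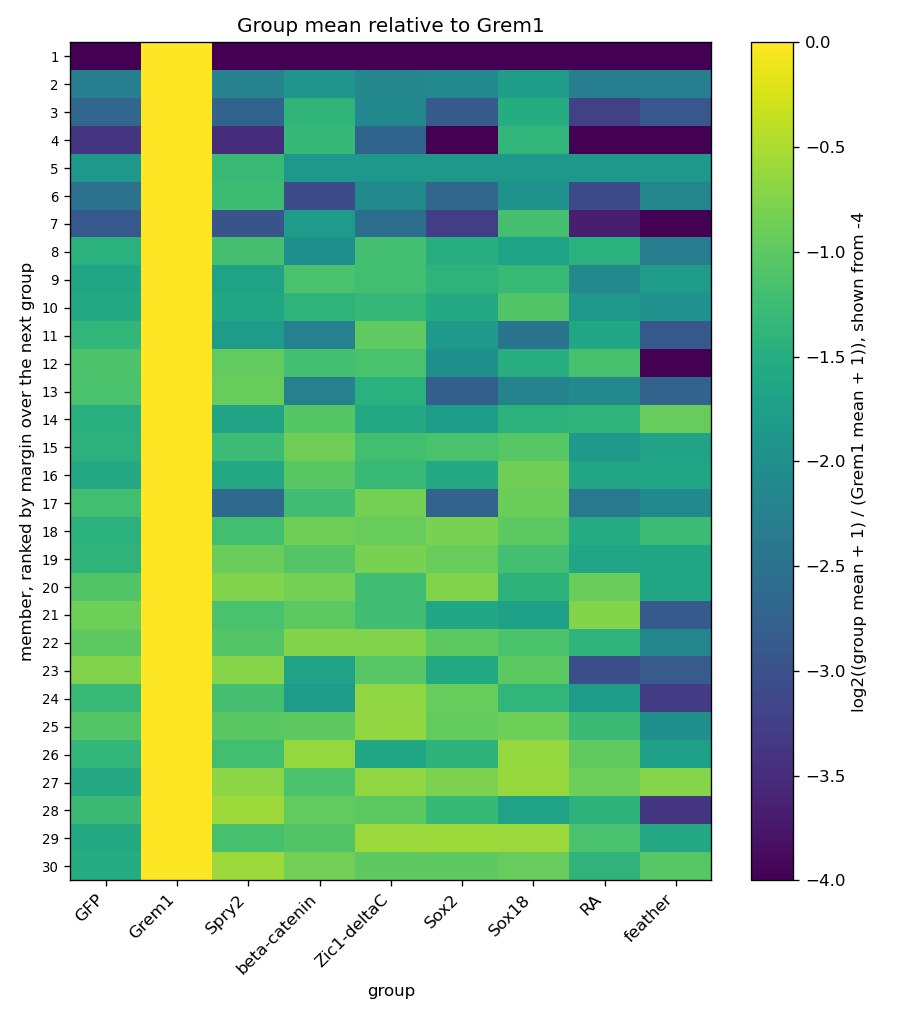
Group means of the 30 members (rows, by rank) in the 9 groups (columns), as log2 of the mean plus 1 over that of Grem1, with darker cells lower. The Grem1 column is 0 throughout by construction, rank 1 has the darkest colour in every other group, and ranks 3, 4 and 7 are brighter in the beta-catenin and Sox18 columns than in the other columns outside Grem1.

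The group that came next after Grem1 varied among the members. It was Spry2 for 9 members, Sox18, beta-catenin and Zic1-deltaC for 5 each, Sox2 for 2, RA and feather for 1 each and GFP for 0, with 2 groups level for the other 2 members. After scaling, Sox18 came next for 9 members, feather for 5, Spry2, beta-catenin and Zic1-deltaC for 4 each, RA for 3 and GFP for 1. The lowest group was feather for 14 members, RA for 6, Sox2 for 3 and GFP for 2, with ties in 5. With scaling it was feather for 10, RA and Sox2 for 6 each, GFP for 4, and beta-catenin and Sox18 for 1 each, with ties in 2. The rule caps each of these 8 groups but does not set their order, so differences among them were tested. limma was fitted to log2(RPKM + 1) of all 11863 genes and all 20 libraries, with the Benjamini-Hochberg adjustment over all genes within a comparison and a threshold of 0.05. Differences below are on the log2(RPKM + 1) scale, which understates changes of low genes. All 30 members were tested, but 4 of them would not have passed the filter without the Grem1 libraries, namely ranks 2, 5, 10 and 16. In each comparison the first count over the 30 is therefore followed by the count over the other 26. The latter came from a fit whose filter was counted without the Grem1 libraries. This fit was added after the data were seen and kept 11817 genes. Its shares of all genes called are drawn in the plot of calls by comparison. Counts after scaling, with a library left out, with 2 groups alone or with the replicate block were not made over the 26. They still include ranks 2, 5, 10 and 16 wherever these passed the filter. The shares of all genes beside such counts are therefore given as a description only. Of the 8 comparisons, 7 share the GFP libraries.

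**Figure D4:**
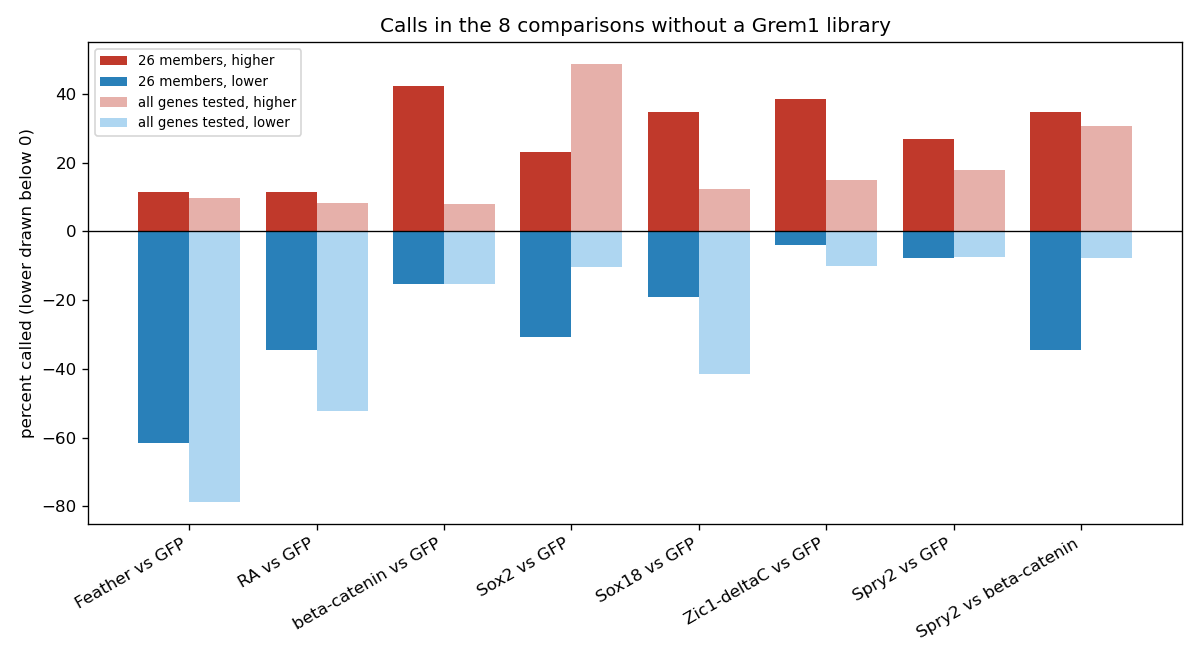
Percent of 26 members (dark bars) and of all 11817 genes (pale bars) that pass the filter without the Grem1 libraries, called higher (above 0) or lower (below 0) by limma in the 8 comparisons that hold no Grem1 library. With beta-catenin 42.3% of these members were called higher against 7.91% of all genes, and in feather 61.5% were called lower against 78.9%.

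Beta-catenin scales had 13 of 30 members higher than GFP scales and 4 lower, while limma called 23.2% of all genes, 7.97% higher and 15.2% lower. Of the 26 members that pass the filter without the Grem1 libraries, 11 were higher and 4 lower, against 7.91% and 15.2% of all genes. Over these 26 the median difference was 0.32, and over all genes -0.08. With scaling, 17 of the 30 were higher and 4 lower, against 14.2% and 12.6% of all genes. ENSGALG00000013575 (rank 4) stood at 7.2 and 8.2 RPKM with beta-catenin against 1.4 and 0.80 RPKM in GFP scales, and at 22.8 and 18.6 RPKM in Grem1 scales. The gene rose by 2.06 (SE 0.20, limma adjusted p = 2.42e-06). It was picked as the largest called rise, so nothing is read from the lack of overlap between the groups. ENSGALG00000013723 (rank 3) stood at 2.5 and 3.3 RPKM against 0.60 RPKM in both GFP libraries, a rise of 1.28 (SE 0.13, limma adjusted p = 6.21e-06), and at 8.9 and 9.5 RPKM in Grem1 scales. Among members that fell, ENSGALG00000007157 (rank 13) went from 2.9 RPKM in both GFP libraries to 0.70 and 0.90 RPKM, a difference of -1.12 (SE 0.13, limma adjusted p = 1.96e-05). ENSGALG00000027445 (rank 23) went from 4.2 and 5.3 to 1.9 and 2.1 RPKM, a difference of -0.93 (SE 0.16, limma adjusted p = 0.00055). Without GFP replicate 2, 7 of the 30 were higher and 4 lower, against 5.89% and 10.4% of all genes. With only these 2 groups in the fit they also numbered 7 and 4, against 3.99% and 6.41%.

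Sox18 scales had 12 members higher than GFP scales and 5 lower, against 12.3% and 41.3% of all genes, 53.6% together. Of the 26 members, 9 were higher and 5 lower, against 12.3% and 41.4%, with a median difference of 0.18, and of -0.20 over all genes. After scaling, 17 of the 30 were higher and 4 lower, against 24.1% and 25.0% of all genes. The scaled count was not made over the 26. It includes members that pass the filter only with the Grem1 libraries, so nothing is read from it against all genes. Here too ENSGALG00000013575 (rank 4) had the largest rise, with 6.4, 7.1 and 8.8 RPKM against 1.4 and 0.80 RPKM (difference 2.01, SE 0.18, limma adjusted p = 2.71e-07). ENSGALG00000006384 (rank 7) stood at 4.5, 6.1 and 9.1 RPKM against 1.9 and 0.70 RPKM, a rise of 1.72 (SE 0.25, limma adjusted p = 3.54e-05), and at 17.4 and 14.9 RPKM in Grem1 scales. Every Sox18 library of both genes lay above both GFP libraries, the genes being picked as the largest called rises. Each also lay below both Grem1 libraries, as was true of all 30 members, chosen for their higher Grem1 means. ENSGALG00000006032 (rank 11) fell, with 3.3, 3.6 and 3.7 RPKM against 9.0 and 8.5 RPKM (difference -1.11, SE 0.14, limma adjusted p = 1.03e-05). ENSGALG00000007157 (rank 13) fell as well, with 0.70, 1.0 and 0.90 RPKM against 2.9 RPKM in both GFP libraries (difference -1.07, SE 0.12, limma adjusted p = 2.36e-06).

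For 7 members the highest levels outside Grem1 scales were those of Sox18 and beta-catenin, namely ranks 2, 3, 4, 7, 15, 16 and 26. They were grouped after their values were seen and by the levels of these groups, so no count of their calls is given. Ranks 2 and 16 are not among the 26. Rank 15 stood at 2.8 RPKM or more in Grem1 scales, with 0.80 and 0.40 RPKM in GFP scales, 1.5 and 1.2 with beta-catenin and 1.3, 0.70 and 1.3 with Sox18, which was called in none of the 7 comparisons with GFP. The most abundant was rank 26, with 24.1 and 22.7 RPKM in Grem1 scales, 13.5 and 16.1 with beta-catenin, 15.9, 13.3 and 15.2 with Sox18, and 7.4 and 9.8 in GFP scales.

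**Figure D5:**
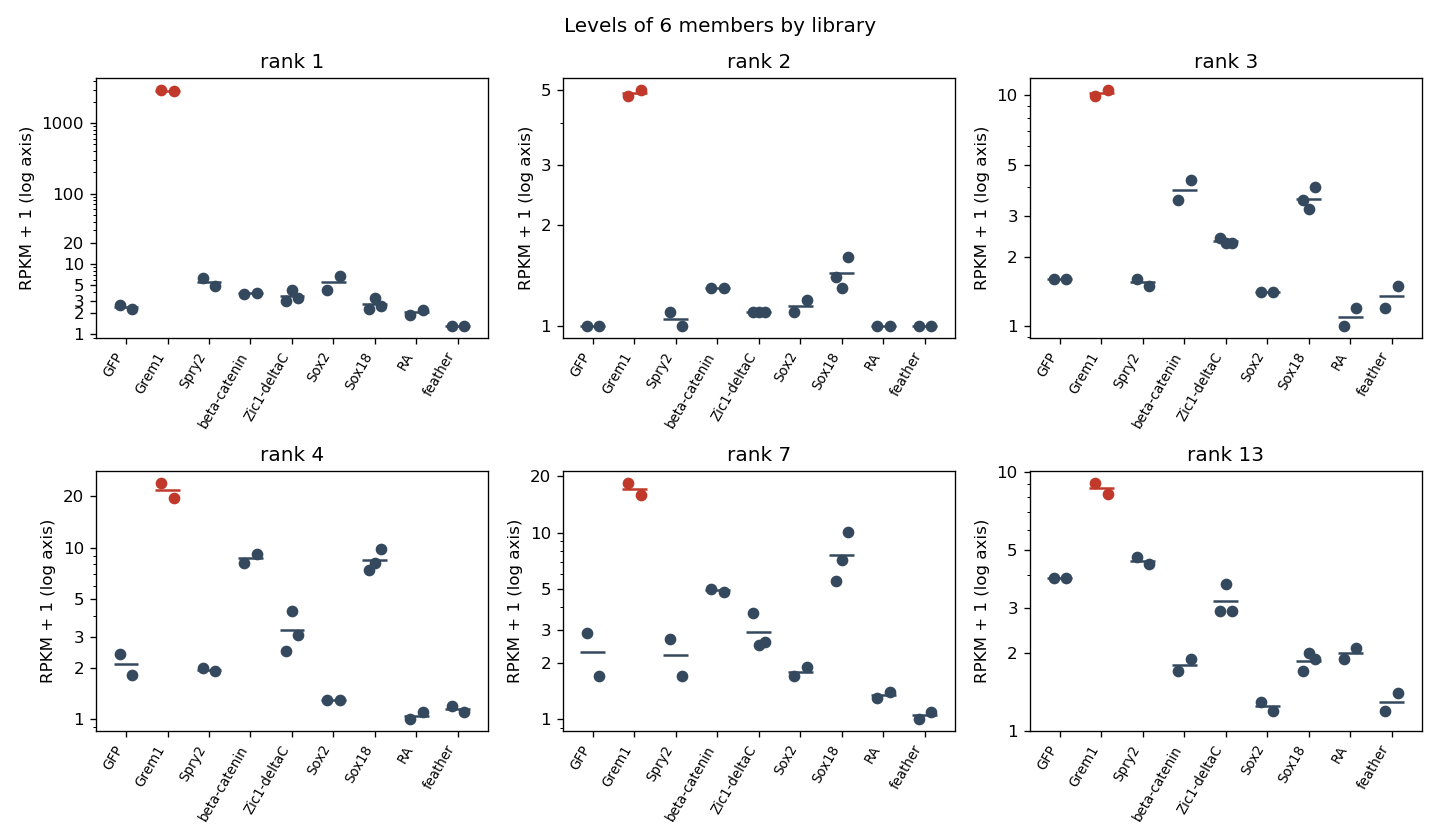
RPKM + 1 (vertical axes, log axes) of ranks 1, 2, 3, 4, 7 and 13 in each library (points) of the 9 groups, with lines at the group means and Grem1 in red. Ranks 3, 4 and 7 stand next highest with beta-catenin and Sox18, and rank 13 stands at 2.9 RPKM in GFP scales and at 0.90 RPKM or less with beta-catenin.

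Spry2 scales had 8 members higher than GFP scales and 2 lower, against 17.9% and 7.41% of all genes, 25.3% together. Of the 26 members, 7 were higher and 2 lower, against 17.8% and 7.44%, with a median difference of 0.14, and of 0.11 over all genes. With scaling, 8 of the 30 were higher and 3 lower, against 12.7% and 12.8% of all genes. ENSGALG00000023622 (rank 6) stood at 4.4 and 2.5 RPKM against 1.1 and 0.60 RPKM, a rise of 1.25 (SE 0.27, limma adjusted p = 0.00292) that was no longer called without Spry2 replicate 1 (limma adjusted p = 0.0576) or with only these 2 groups (0.0574). It stood at 9.8 and 9.3 RPKM in Grem1 scales. ENSGALG00000009724 (rank 1) was measured at 5.4 and 3.8 RPKM against 1.6 and 1.3 RPKM (difference 1.18, SE 0.21, limma adjusted p = 0.000543), against 2941 and 2866 RPKM in Grem1 scales. ENSGALG00000023819 (rank 17) went from 8.5 and 5.7 RPKM to 2.0 RPKM in both Spry2 libraries (difference -1.41, SE 0.19, limma adjusted p = 5.5e-05). The fall of ENSGALG00000006032 (rank 11), from 9.0 and 8.5 to 7.4 and 4.9 RPKM (difference -0.47, SE 0.16, limma adjusted p = 0.0357), was lost in 6 of the alternatives, and without Spry2 replicate 2 its adjusted p was 0.384.

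Zic1-deltaC scales had 10 members higher than GFP scales and 1 lower, against 14.8% and 9.9% of all genes, 24.7% together. All 11 are among the 26 members, whose median difference was 0.38, and that of all genes 0.05. With scaling, 11 of the 30 were higher and 2 lower, against 14.2% and 14.2% of all genes. ENSGALG00000025915 (rank 29) stood at 11.5, 11.7 and 11.9 RPKM against 5.3 and 5.7 RPKM, a rise of 0.97 (SE 0.12, limma adjusted p = 2.98e-05). ENSGALG00000015209 (rank 27) stood at 43.3, 38.0 and 43.6 RPKM against 22.4 and 20.9 RPKM, a rise of 0.91 (SE 0.11, limma adjusted p = 1.7e-05). The 1 member that fell was ENSGALG00000012426 (rank 21), at 6.0, 6.0 and 5.7 RPKM against 7.7 RPKM in both GFP libraries (difference -0.33, SE 0.09, limma adjusted p = 0.0102), and this call ended without GFP replicate 1 (limma adjusted p = 0.0537) or 2 (0.0744). Without GFP replicate 2, 6 members were called higher and 0 lower, against 6.29% and 4.43% of all genes.

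Sox2 scales had 6 members higher than GFP scales and 8 lower, while limma called 58.9% of all genes, 48.5% higher and 10.4% lower. All 14 are among the 26 members, whose median difference was -0.05, and that of all genes 0.28. After scaling, 4 of the 30 were higher and 10 lower, against 17.7% and 21.6% of all genes. ENSGALG00000009724 (rank 1) stood at 3.3 and 5.8 RPKM against 1.6 and 1.3 RPKM (difference 1.14, SE 0.21, limma adjusted p = 0.000243). ENSGALG00000025915 (rank 29) rose as well, at 10.8 and 13.0 RPKM against 5.3 and 5.7 RPKM (difference 0.98, SE 0.13, limma adjusted p = 1.74e-05). Among the falls, ENSGALG00000007157 (rank 13) was at 0.30 and 0.20 RPKM against 2.9 RPKM in both GFP libraries (difference -1.64, SE 0.13, limma adjusted p = 4.89e-08). ENSGALG00000023819 (rank 17) was at 1.6 and 2.0 RPKM against 8.5 and 5.7 RPKM (difference -1.51, SE 0.19, limma adjusted p = 8.98e-06).

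RA scales had 3 members higher than GFP scales and 10 lower, against 8.34% and 52.2% of all genes, 60.5% together. Of the 26 members, 3 were higher and 9 lower, against 8.37% and 52.4%, with a median difference of -0.25, and of -0.31 over all genes. The split turned with scaling for members and all genes alike, to 7 of the 30 higher and 5 lower, against 19.8% and 16.9% of all genes. Without GFP replicate 1, 1 was higher and 6 lower, against 6.44% and 39.7% of all genes. ENSGALG00000027445 (rank 23) was at 0.20 RPKM in both RA libraries against 4.2 and 5.3 RPKM (difference -2.25, SE 0.16, limma adjusted p = 5.29e-08). ENSGALG00000023819 (rank 17) was at 2.7 and 2.4 RPKM against 8.5 and 5.7 RPKM (difference -1.17, SE 0.19, limma adjusted p = 0.00015). ENSGALG00000015209 (rank 27) rose to 36.1 and 35.6 RPKM from 22.4 and 20.9 RPKM (difference 0.70, SE 0.12, limma adjusted p = 0.000178). ENSGALG00000025915 (rank 29) was at 8.0 and 7.5 RPKM against 5.3 and 5.7 RPKM (difference 0.43, SE 0.13, limma adjusted p = 0.0118), a call that ended without GFP replicate 1 (0.071) or RA replicate 1 (0.0663).

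Feather had 3 members higher than GFP scales and 17 lower, against 9.68% and 78.6% of all genes, 88.3% together. Of the 26 members, 3 were higher and 16 lower, against 9.71% and 78.9%. Their median difference was -0.86, near the -0.94 of all genes, while over all 30 members it was -0.47. After scaling, 9 of the 30 were higher and 13 lower, against 36.0% and 37.0% of all genes. ENSGALG00000006645 (rank 12) stood at 1.4 and 2.0 RPKM in feather against 18.8 and 23.3 RPKM in GFP scales and 49.5 and 43.7 RPKM in Grem1 scales. It was lower in feather than in GFP scales by limma (difference -3.03, SE 0.14, adjusted p = 5.53e-12), and by -2.1 after scaling. ENSGALG00000027445 (rank 23) was at 0.20 and 0.50 RPKM against 4.2 and 5.3 RPKM (difference -2.09, SE 0.16, limma adjusted p = 1.8e-09). ENSGALG00000015209 (rank 27) rose to 34.2 and 45.2 RPKM from 22.4 and 20.9 RPKM (difference 0.83, SE 0.12, limma adjusted p = 4.3e-06), and by 2.07 after scaling. ENSGALG00000000720 (rank 14), whose next highest group after Grem1 was feather, was at 1.7 and 2.0 RPKM against 1.0 and 0.90 RPKM (difference 0.55, SE 0.11, limma adjusted p = 0.000158), and at 4.3 and 4.5 RPKM in Grem1 scales.

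GFP scales alone held the lowest mean of all 9 groups for 2 members. ENSGALG00000015209 (rank 27), at 70.4 and 62.9 RPKM in Grem1 scales, was called higher than GFP in all 7 comparisons, and the rank 30 gene, at 9.6 and 10.6 RPKM in Grem1 scales and 2.9 and 2.8 in GFP scales, in 6. These comparisons share the GFP libraries, so a low GFP value enters each of them.

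Spry2 scales were also compared with beta-catenin scales, which share no library. Of the 30 members, 10 were higher with Spry2 and 11 lower, while limma called 38.3% of all genes, 30.6% higher and 7.71% lower. Of the 26 members, 9 were higher and 9 lower, against 30.6% and 7.71%. Their median difference was 0.02, that of all 30 was -0.05, and that of all genes 0.18. After scaling, 6 of the 30 were higher and 12 lower, against 14.1% and 15.5% of all genes. ENSGALG00000013575 (rank 4) was at 1.0 and 0.90 RPKM with Spry2 against 7.2 and 8.2 RPKM with beta-catenin (difference -2.16, SE 0.20, limma adjusted p = 8.39e-07). ENSGALG00000023819 (rank 17) was at 2.0 RPKM in both Spry2 libraries against 6.8 and 7.2 RPKM (difference -1.41, SE 0.19, limma adjusted p = 4.17e-05). Higher with Spry2, ENSGALG00000023622 (rank 6) was at 4.4 and 2.5 RPKM against 0.30 and 0.20 RPKM (difference 1.8, SE 0.27, limma adjusted p = 9.84e-05). ENSGALG00000007157 (rank 13) was at 3.7 and 3.4 RPKM against 0.70 and 0.90 RPKM (difference 1.34, SE 0.13, limma adjusted p = 1.5e-06). The libraries of the groups did not overlap for any of these 4 genes. They were picked as the largest called changes, so nothing is read from this. Without Spry2 replicate 1, 4 of the 30 were higher and 8 lower, against 16.0% and 4.78% of all genes.

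After the first-ranked gene, ranks 28 and 27 were the most abundant members. Rank 28 stood at 162 and 154 RPKM in Grem1 scales, 115 and 94.4 RPKM with Spry2, 64.8 and 64.2 RPKM in GFP scales, and 13.0 and 15.9 RPKM in feather. Rank 27 stood at 70.4 and 62.9 RPKM in Grem1 scales and between 20.9 and 46.2 RPKM in the other libraries. Over the 9 group means, the genes outside the set most like rank 1 had Pearson's r of 0.91, 0.88 and 0.84 on the log2 scale, and those most like rank 2 had 0.89, 0.88 and 0.82. These genes reached at most 1.38 times the next group in mean plus 1, and 2 of them were the same for both ranks. All of these genes are Ensembl rows. At their Grem1 levels, any Ensembl row left outside the set lies under the ratio of the rule, so nothing is read from this ratio. Each r includes the Grem1 mean, on which the members were chosen, so nothing is read from its size either.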

How the data were processed

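Per the labels' protocols, RNA was taken from dissected tissue in Trizol and sequenced from Illumina TruSeq RNA V2 libraries. Per the submitters' processing notes, TopHat2, Partek and the chicken build galGal4 were used. Versions of these tools, and the annotation, were not given in the sources used here. Deposited values are RPKM to 1 decimal, in a table of all genes and a table of keratins with identical values for 180 of 180 keratins. Whole reads could not be recovered from values with 1 decimal, so no count test was run and precision rests on the spread between libraries.

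Members were found by the stated rule on group means. limma 3.58.1 in R 4.3.3 was fitted with an intensity trend to log2(RPKM + 1) of the 11863 genes with at least 1 RPKM in at least 2 libraries, over 9 groups (11 residual degrees of freedom, prior 5.35), without a replicate block. Tables used pandas 2.3.3 and numpy 2.4.6 and plots matplotlib 3.10.9, in Python 3.11.15. Median-ratio factors used 11635 genes above 0 in every library. The members, lists, tests and alternatives were chosen with earlier results of these data known.

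The members given with p-values are, in each tested comparison, the 2 largest called rises and 2 largest called falls. With Zic1-deltaC only 1 fall was called. The 2 members with the largest margin are also given by identifier, rank 2 without a p-value. Others are given by rank. Of 219 symbols in 20 lists of pathway and cell type genes, 5 keratins matched the table, so these lists were not assessed. The rule and the fit were tested on simulated data. For the fit, changes were planted only in genes with a higher mean level, so members at low levels were not covered. No sequence is shown, since no file used here ties these identifiers to one.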

Additional observations from a re-analysis of the deposited data

How the results depend on the processing

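Directions of the differences given with p-values were kept wherever the 7 other settings and the 20 left-out libraries gave a value, and the calls that ended are named beside their results. The set held 33 genes after scaling and 45 with a pseudocount of 0.1 in the rule, which includes all 30 members. It held 47 with no pseudocount, 10 at a ratio of 2, 21 at a Grem1 mean of 5, and 19 with the lowest Grem1 library set against the highest other library. Leaving out 1 library gave 28 to 42 genes.

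A filter at a mean of 5 RPKM kept 7167 genes and 12 members, so counts of members called fell with it. They fell to 11 in feather, 5 with RA, 7 with beta-catenin, 9 with Sox2, 8 with Sox18 and 6 with Zic1-deltaC. With Spry2 they fell to 7, and for Spry2 against beta-catenin to 7 as well. Of all genes in those fits, limma called 91.3%, 66.0%, 22.4%, 61.5%, 56.9%, 26.1%, 27.2% and 42.5% in the same order. This mean was taken over all 20 libraries, and ranks 1 and 30 passed it only with the Grem1 libraries. The shares beside these counts are therefore a description only. With only 2 groups in the fit, 11 members were called with beta-catenin. Over all genes limma called 1234 in place of 2748 there and 1806 in place of 3001 with Spry2. Leaving out 1 library gave 7 to 13 members called with RA, 11 to 20 with beta-catenin, 6 to 14 with Zic1-deltaC and 12 to 21 for Spry2 against beta-catenin, and 18 to 21 in feather, 10 to 16 with Sox2, 15 to 20 with Sox18 and 7 to 11 with Spry2. Without either Grem1 replicate only 27 members passed the filter, and the lowest Sox18 count, 15, came from these fits. Calls over all genes moved as well. They numbered 5122 to 7563 with RA, 1515 to 3262 with beta-catenin, 1271 to 3392 with Zic1-deltaC and 2461 to 5009 for Spry2 against beta-catenin. In feather they numbered 10017 to 10509, with Sox2 5088 to 7338, with Sox18 4885 to 6707 and with Spry2 1600 to 3562. These fits held 11777 to 11859 genes.

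Nothing in the labels pairs samples by replicate number. Deviations of same-numbered libraries correlated between -0.279 and 0.213 over 73 pairs, with 8 above 0.1. Deviations within a group of 2 libraries are equal and opposite. Pairs between such groups therefore repeat the same value, and the 73 are not separate observations. With the replicate block the members called were 20, 12, 17, 14, 18, 11, 9 and 20 in feather, RA, beta-catenin, Sox2, Sox18, Zic1-deltaC and Spry2 against GFP and Spry2 against beta-catenin, beside 88.1%, 60.2%, 23.3%, 59.0%, 53.8%, 20.3%, 25.1% and 38.1% of all genes, and the Spry2 fall of ENSGALG00000006032 was not called (limma adjusted p = 0.0511). No group held 4 libraries, so single stray libraries were not tested for, and depth is unknown.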
